A study of Mus musculus with 2 samples.

Results

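Divergent promoter pairs are neighbouring protein-coding genes on opposite strands whose 5′ ends lie close together and point apart, so that 1 stretch of DNA serves as the upstream region of both. In the GENCODE M21 annotation of the mouse build mm10, 734 pairs had 5′ ends at most 1 kb apart on autosomes. They held 1448 genes, which is 6.959% of the 20807 autosomal protein-coding genes, and 20 of these genes belonged to more than 1 pair. Accessible chromatin at the pairs was read from DNase-seq of thymus, an assay in which the nuclease DNase I cuts DNA where nucleosomes leave it exposed. The thymus came from 2 female B6CASTF1/J mice, the first-generation hybrid of C57BL/6J and CAST/EiJ, both 25 days old and with no treatment named in the labels. Each animal gave 1 library, so the 2 libraries, replicate 1 and replicate 2, form 1 group and nothing was contrasted between conditions. Because the thymus was taken whole and values were not split by parental allele, each value is a mixture over its cell types and over both parental genomes.

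Divergent promoters are usually rich in CpG dinucleotides and poor in TATA boxes. They are known for holding housekeeping genes, above all genes of DNA repair, of mitochondria and of the replication-dependent histones. The 2 genes of such a pair can share transcription factor sites, and factors such as NFY, NRF1, GABPA, YY1 and BANP are known to bind promoters of this kind. The thymus makes T cells, whose precursors cut and rejoin their receptor genes and therefore use DNA repair enzymes, among them DNA ligase IV and DNA-PKcs, that are also encoded at divergent pairs.

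The DNA between the 2 starts is shown for 10 pairs, read 5′ to 3′ on the plus strand of the mm10 reference, which is the C57BL/6J sequence. Capitals mark exact matches on either strand to any of 16 short motifs that were searched. The first 3 show the palindromic sites of BANP and NRF1, which lay in a footprint more often than not. At Dcaf6/Mpc2 (chr1:165460476-165460636) the capitals are 1 BANP site, at Polh/Xpo5 (chr17:46202646-46202781) 1 SP/KLF site and 2 NRF1 sites, and at Efcab11/Tdp1 (chr12:99884440-99884516) 1 NRF1 site and 1 SP/KLF site.
Dcaf6/Mpc2: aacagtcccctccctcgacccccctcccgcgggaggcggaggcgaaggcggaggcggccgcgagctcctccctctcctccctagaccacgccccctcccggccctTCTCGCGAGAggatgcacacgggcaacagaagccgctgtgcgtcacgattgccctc
Polh/Xpo5: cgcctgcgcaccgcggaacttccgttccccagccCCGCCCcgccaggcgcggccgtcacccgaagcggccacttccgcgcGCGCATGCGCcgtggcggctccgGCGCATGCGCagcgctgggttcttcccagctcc
Efcab11/Tdp1: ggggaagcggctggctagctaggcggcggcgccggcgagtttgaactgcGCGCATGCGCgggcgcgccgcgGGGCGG
The next 4 show CCAAT boxes, the NFY motif, repeated (ATTGG is CCAAT read on the other strand). Both orientations occur in all of them except Mrps12/Sars2, where every box reads ATTGG. Recql/Golt1b (chr6:142387088-142387220) held 4 of them, Mrps12/Sars2 (chr7:28741821-28741991) 4 beside 1 SP/KLF site, and Xrcc3/Zfyve21 (chr12:111813874-111814169) 7 beside 3 SP/KLF sites. The histone pair Hist1h2ak/Hist1h2bn (chr13:21753828-21754122) held 3 CCAAT boxes and 1 TATA motif (TTTATA is its other strand).
Recql/Golt1b: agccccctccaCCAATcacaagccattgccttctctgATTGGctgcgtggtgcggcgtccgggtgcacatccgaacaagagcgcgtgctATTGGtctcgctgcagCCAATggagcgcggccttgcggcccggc
Mrps12/Sars2: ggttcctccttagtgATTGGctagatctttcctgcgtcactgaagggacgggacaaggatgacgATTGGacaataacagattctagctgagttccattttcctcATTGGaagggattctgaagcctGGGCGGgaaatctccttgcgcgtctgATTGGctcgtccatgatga
Xrcc3/Zfyve21: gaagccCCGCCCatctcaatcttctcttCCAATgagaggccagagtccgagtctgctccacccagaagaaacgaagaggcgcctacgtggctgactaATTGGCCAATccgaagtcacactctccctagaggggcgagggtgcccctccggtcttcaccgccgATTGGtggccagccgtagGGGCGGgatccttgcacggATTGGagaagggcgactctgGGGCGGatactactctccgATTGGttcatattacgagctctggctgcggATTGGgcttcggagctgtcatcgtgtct
Hist1h2ak/Hist1h2bn: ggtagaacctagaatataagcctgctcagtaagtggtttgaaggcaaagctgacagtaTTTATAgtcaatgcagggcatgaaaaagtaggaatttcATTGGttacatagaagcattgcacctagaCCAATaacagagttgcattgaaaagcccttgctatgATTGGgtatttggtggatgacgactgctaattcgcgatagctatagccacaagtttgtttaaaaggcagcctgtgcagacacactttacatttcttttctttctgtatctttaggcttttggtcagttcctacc
The last 3 show a GABPA/ETS site and 2 pairs without any of the motifs between their starts. Poll/Gm17018 (chr19:45560532-45560614) carried the GABPA/ETS site. Hjurp/Trpm8 (chr1:88277634-88277660) had the densest peak of all pairs in replicate 1. That peak was 200 bp wide and reached beyond the 27 bp shown, so the absence of motifs here does not cover it. Zfp558/Mbd3l1 (chr9:18478269-18478358) had a peak in neither library.
Poll/Gm17018: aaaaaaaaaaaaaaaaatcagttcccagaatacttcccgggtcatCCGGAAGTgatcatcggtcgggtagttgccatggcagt
Hjurp/Trpm8: ggggagggacgagagggagggtccgcc
Zfp558/Mbd3l1: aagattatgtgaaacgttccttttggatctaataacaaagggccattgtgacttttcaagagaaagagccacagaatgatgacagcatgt

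The libraries differed in how much was called. The longer deposited peak list held 127552 peaks in replicate 1 and 67270 in replicate 2, and read depth is not given in the sources used here. Of 25 T-lineage marker genes, 24 and 23 had a peak at their start in replicates 1 and 2, against 2 of 7 thymic epithelial genes in both, 2 and 1 of 5 B cell genes, 2 of 6 neuron genes and 1 of 6 muscle genes in both, and 0 of 8 liver genes in both. Over all autosomal protein-coding genes, 59.6% and 53.2% had a peak midpoint within 500 bp of the start. A gene is called open below where a peak's midpoint lay within 500 bp of its annotated 5′ end, and a pair is open where a midpoint lay between its starts or within 500 bp of either.

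Nearly all divergent pairs were open in the thymus. In replicate 1, 705 of 734 pairs had a peak (96.05%, 95% Wilson interval 94.4 to 97.2%), and in replicate 2, 694 had one (94.55%, interval 92.7 to 96.0%), which gave 95.3% ± 1.06 (SD, n = 2). Of all pairs, 693 were open in both libraries, 12 in replicate 1 only, 1 in replicate 2 only and 28 in neither. Counted by gene, 1376 of the 1448 genes of pairs were open in replicate 1 (95.03%) and 1352 in replicate 2 (93.4%), where the background over all autosomal protein-coding genes was 59.6% and 53.2%. Among the 19359 genes in no pair the shares were 57% and 50.1%. That set contains 1128 olfactory receptor genes, of which 13 and 5 were open and none lay in a pair. It also contains the genes of 434 head-to-head pairs whose 5′ ends overlap. Of those overlapping pairs, 94.2% and 91.2% were open in replicates 1 and 2. The 2 genes of a pair mostly share their peak and are not independent of each other.

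Peaks of the pairs were dense. The authors' density per peak, the deposited signal value whose scaling is not stated, had a median of 12.6 over 1043 divergent peaks in replicate 1 and of 7.27 over 968 in replicate 2. All other promoter peaks, those with a midpoint within 1 kb of any start, had medians of 2.19 (22013 peaks) and 2.42 (16035 peaks). The ratio of medians was 5.74 in replicate 1 and 3.0 in replicate 2, or 4.37 ± 1.94 (SD, n = 2). The size of this ratio depended on which other peaks were counted. Held to midpoints within 500 bp of a start, as for the pairs, the other promoter peaks had medians of 4.95 and 3.71, and the ratio was 2.54 and 1.96, mean 2.25. With only the densest peak of each promoter, and other promoters again taken within 1 kb, the mean ratio was 2.12. Within 500 bp of a start, the densest peaks had medians of 17.1 and 10.3 at pairs and of 8.03 and 4.98 at open genes in no pair. In all the countings given here per library, divergent peaks had the higher median in both, although the 2 distributions overlapped widely.

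**Figure D1:**
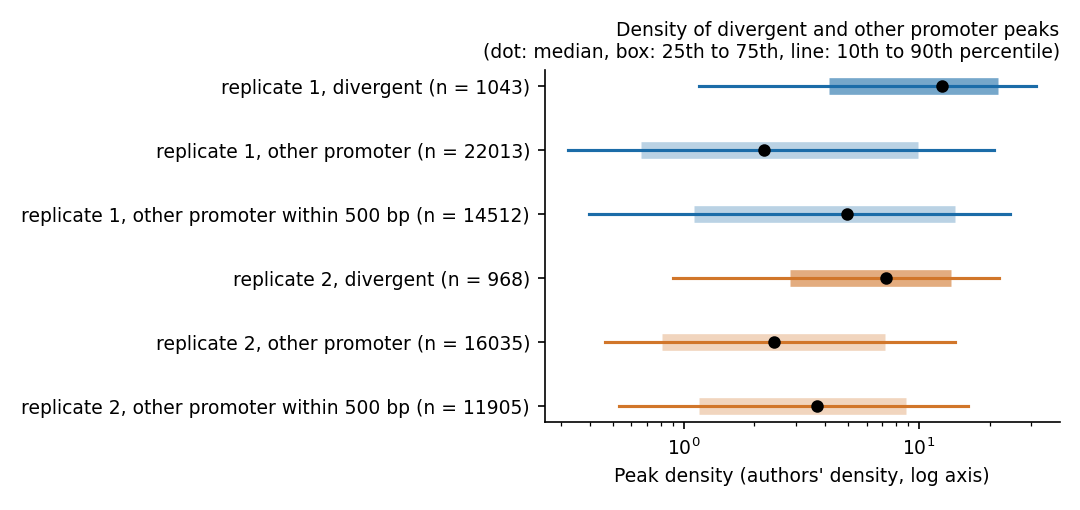
Density of peaks on a log axis for divergent peaks, other promoter peaks and other promoter peaks within 500 bp of a start, in each library. The dot is the median, the box spans the 25th to 75th and the line the 10th to 90th percentile of peaks. The divergent medians of 12.6 and 7.27 lie above all others of their library, while the lines overlap.

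Ranked among all autosomal peaks of its library, the median divergent peak stood at percentile 94.8 in replicate 1 and 90.4 in replicate 2. Of divergent peaks, 66.4% and 50.9% were among the densest 10% of peaks, against 31.5% and 25.6% of other promoter peaks. The width of peaks did not set the classes apart, with medians of 220 bp at pairs in both libraries and of 200 and 220 bp at other promoters. Footprints, short protected stretches within a hypersensitive site that mark bound protein, numbered 3.94 and 3.93 on average per divergent peak and 2.81 and 3.14 per other promoter peak. Within 500 bp of a start the other promoter peaks held 3.36 and 3.56 footprints. In replicate 1, 88.1% of divergent peaks overlapped a peak of replicate 2, against 68.6% of other promoter peaks. In the other direction the shares were 95.1% and 93.6%, and replicate 1 had the longer list to be found in.

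The order of the pairs was alike in the 2 animals. Over the 693 pairs open in both libraries, the density of the densest peak in replicate 1 went with that in replicate 2 (Spearman rho 0.869; Pearson r of the log10 densities 0.909). This describes pairs rather than independent samples, and both libraries share the annotation and base composition that could order them. Densities ran from 0.598 at Gm9922/Lmo7 to 72.3 at Hjurp/Trpm8 in replicate 1, and from 0.378 at Kctd19/Lrrc36 to 46.0 at Aamp/Pnkd in replicate 2.

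**Figure D2:**
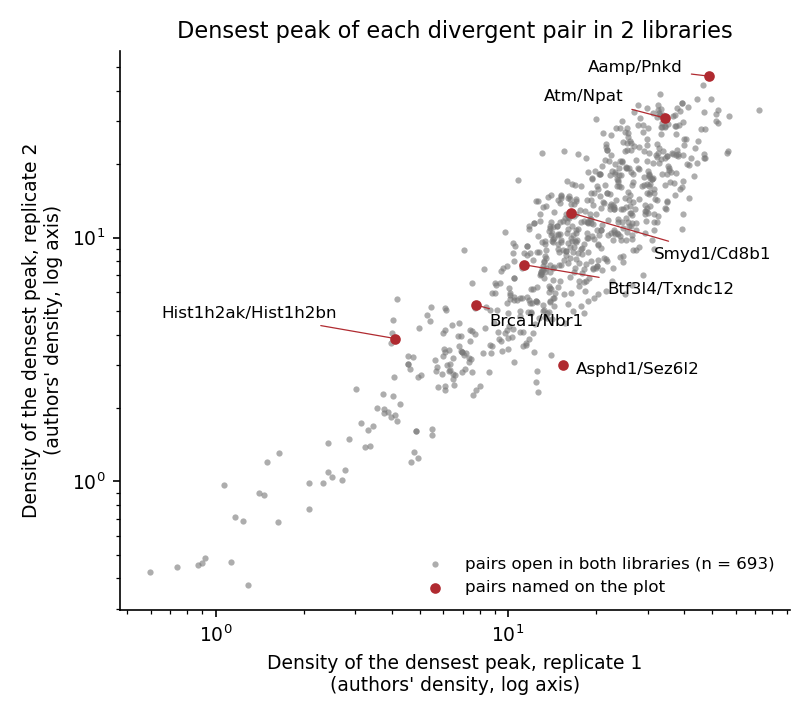
Density of the densest peak of each pair in replicate 1 against replicate 2, both on log axes, for the 693 pairs open in both libraries. Named pairs are in red: Aamp/Pnkd lies at 48.7 and 46.0, Brca1/Nbr1 at 7.80 and 5.29, and Asphd1/Sez6l2, at 15.5 and 2.99, lies well below the cloud.

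The densest pairs by mean rank over the libraries joined genes of unrelated roles. Aamp/Pnkd led, with densities of 48.7 in replicate 1 and 46.0 in replicate 2, and its densest peak lay between the starts and over that of Pnkd (chr1:74284741-74284980 in replicate 1). At Dcaf6/Mpc2, a substrate receptor of the CUL4 ubiquitin ligase beside a subunit of the mitochondrial pyruvate carrier, the densities were 49.3 and 37.2. The densest peak of Dcaf6/Mpc2 lay over the printed BANP site in replicate 1 (chr1:165460461-165460680), but inside Mpc2 in replicate 2 (chr1:165460961-165461300), and the BANP site was in a footprint in both. Hjurp/Trpm8 pairs the chaperone that loads the centromeric histone CENP-A with a cold-sensing ion channel of sensory neurons, and had 72.3 and 33.5. Zfp654/Cggbp1, with a protein that binds CGG repeats, had 46.4 and 42.4 from 1 peak in each library. Rita1/Ddx54, with an RNA helicase, had 52.4 and 33.4. BC005624/Usp20, with a deubiquitinase, had 44.2 and 37.0, and Tecr/Dnajb1, a fatty acid elongation enzyme beside an HSP40 co-chaperone, 46.7 and 32.9. These 7 pairs stood at or above percentile 99.76 of the autosomal peaks in each library. A peak at the shared region does not tell which of the 2 genes is transcribed.

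Most open pairs were 1 hypersensitive site. Exactly 1 peak was found at 57.6% of open pairs in replicate 1 and 62.7% in replicate 2, 2 peaks at 33.9% and 32.4%, and 3 at 7.94% and 4.18%. A single peak contained both starts at 56.6% and 55.8% of open pairs. Every base from start to start was hypersensitive, meaning below the deposited false discovery rate limit of 0.05 for the cut rate, at 91.3% of all pairs in replicate 1 and 87.7% in replicate 2. At 4.50% and 5.86% of pairs no base was.

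The distance between the starts set whether 1 peak could hold both. It had a median of 128 bp, with 305 pairs under 100 bp and a range of 1 to 987 bp. A single peak contained both starts at 91.6% and 90.1% of open pairs under 100 bp, at 54.7% and 55.6% from 100 to under 200 bp, at 20.4% and 19.6% from 200 to under 300 bp, and at none from 500 to 1000 bp. Peaks were about 200 bp wide in every class. All bases between the starts were hypersensitive at 93.6% of open pairs or more in each class under 500 bp in both libraries, and at 64.5% and 41.7% beyond. Openness itself fell little, from 97.05% and 96.1% of pairs under 100 bp to 91.2% and 88.2% from 500 bp. The median density of the densest peak was 15.9 and 8.04 under 100 bp and 21.2 and 13.7 from 300 to under 500 bp, and it was 16.0 and 9.81 beyond that. The middle classes were therefore the densest in both libraries. The class from 500 bp holds 68 pairs.

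**Figure D3:**
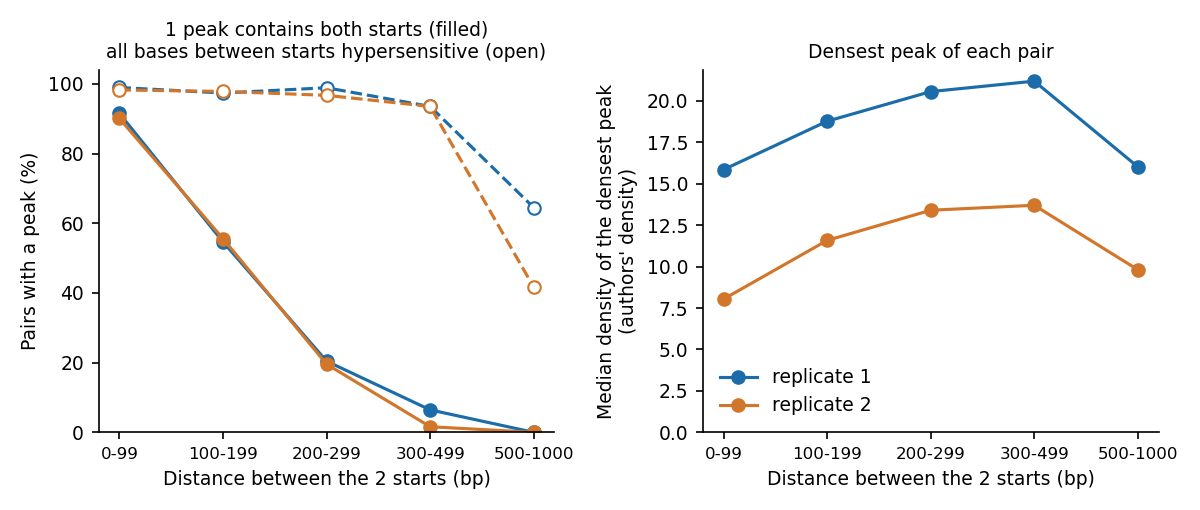
Open pairs by distance between their starts in each library. Left, share of open pairs whose 2 starts lie in 1 peak (filled) and share with all bases between the starts hypersensitive (open circles), in percent. Right, median density of the densest peak per pair. The share with 1 peak over both starts drops from 91.6% and 90.1% to 0, while continuous hypersensitivity holds at 93.6% or more below 500 bp.

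The extremes of distance show both forms. Bag4/Lsm1, a co-chaperone beside an mRNA decay factor, and Slc7a6os/Prmt7, with an arginine methyltransferase, have starts 1 bp apart. Each had 1 peak over both starts in each library, with densities of 25.4 and 10.6 at Bag4/Lsm1 and of 17.1 and 8.20 at Slc7a6os/Prmt7. Dhrs1/Nop9, 3 bp apart, had 8.81 and 3.60, and Bag5/Apopt1, 4 bp apart, 15.1 and 10.4. At the other end, Btf3l4/Txndc12 has starts 987 bp apart and was hypersensitive over all of that distance in both libraries, with 3 peaks in replicate 1 and 2 in replicate 2. Asphd1/Sez6l2, 981 bp apart, had 1 peak of 180 bp between the starts, touching neither, with densities of 15.5 and 2.99, and 67.0% and 41.5% of the bases between were hypersensitive. At Zfyve26/Rad51b, 978 bp apart, the densest peak lay on the Zfyve26 start in both libraries and 79.6% and 43.7% of bases were hypersensitive.

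Around single starts, the pairs were open further upstream. Among the 1376 open genes of pairs in replicate 1, the base at position -300 was hypersensitive in 95.3%, against 64.5% of 11034 open genes in no pair. In replicate 2 the shares were 86.4% of 1352 and 46.6% of 9707. Downstream the order was not the same, with 82.0% against 77.2% at position 400 in replicate 1 but 50.2% against 60.6% in replicate 2. The share stayed at or above 50% of its highest value from -804 to 639 in genes of pairs and from -435 to 770 in genes in no pair in replicate 1, and from -556 to 405 and from -306 to 538 in replicate 2. Hypersensitivity thus leaned into the gene at starts in no pair and upstream at starts of pairs. Upstream of each gene of a pair lies the start of the other, at a median of 128 bp. The genes in no pair include those of the 434 overlapping head-to-head pairs, whose partner start lies within 1 kb downstream. What these add to the downstream lean was not tested.

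**Figure D4:**
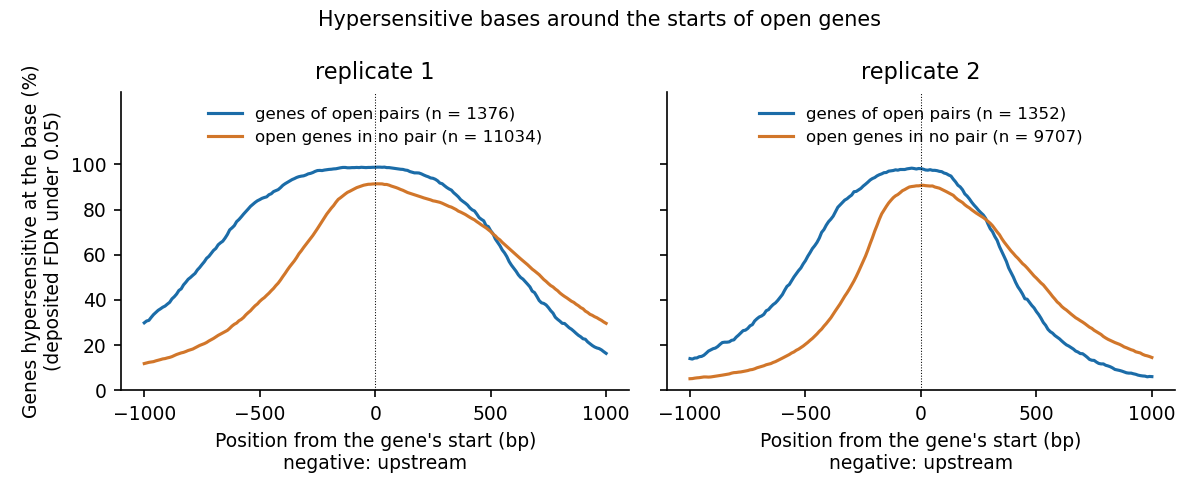
Share of genes hypersensitive at each base from 1000 bp upstream to 1000 bp downstream of the start, in percent, for open genes of pairs and open genes in no pair, 1 panel per library. At -300 the lines stand at 95.3% and 64.5% in replicate 1 and at 86.4% and 46.6% in replicate 2; downstream they cross.

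The pairs with the most footprints held chromatin and RNA-binding genes. Cbx5/Hnrnpa1, heterochromatin protein HP1 alpha beside an RNA-binding protein, held 20 and 14 footprints over 4 peaks in each library. Hnrnpa2b1/Cbx3, the paralogous pair with HP1 gamma, held 16 and 15. Zbtb25/Zbtb1, 2 zinc finger factors, held 19 and 12, and the histone pair Hist1h2ak/Hist1h2bn 14 and 17. The densest peaks of Hist1h2ak/Hist1h2bn, 500 and 540 bp wide and containing both starts, had densities of only 4.12 and 3.86. Footprints were summed over all peaks of a pair, and their relation to density over all pairs was not tested.

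Genes of DNA repair were common in pairs. Of 91 listed repair genes, 30 lay in divergent pairs (33.0%, Wilson interval 24.2 to 43.1%), against 6.959% of all genes. Their 31 pairs, among which Rpa3 counts in 2, were open in both libraries in 30 cases and in replicate 1 only in 1. That is near the 94.4% of all pairs that were open in both. The median over these pairs of the mean percentile of the densest peak was 96.6, beside 95.2 over all pairs. Share and percentile are counts over a list chosen with results of these data known, and neither was tested.

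Among damage signalling genes, Atm/Npat, the ATM kinase beside a coactivator of histone genes, had 1 peak of 340 bp in replicate 1 and 320 bp in replicate 2. Its densities of 34.4 and 30.96 stood at percentiles 99.45 and 99.66. That peak lay on the Atm start and ended short of the Npat start, 307 bp away, in both libraries, and all bases between were hypersensitive. Hscb/Chek2, with the CHK2 kinase, had 23.2 and 20.1, and 1300017J02Rik/Topbp1, with an activator of the ATR kinase, 13.9 and 7.22.

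The pairs of homologous recombination genes spread widely. Xrcc3/Zfyve21, with a recombination gene and the 7 CCAAT boxes shown above, had 28.2 and 31.01, the highest of the repair pairs in replicate 2. Palb2/Dctn5, with the partner of BRCA2, had 31.3 and 17.6, and Rad51c/Tex14 31.6 and 10.8. Brca1/Nbr1, with densities of 7.80 and 5.29, was the lowest of the textbook pairs that met the rule and were open in both libraries. Its densest peak lay on the Brca1 start in replicate 1 (chr11:101551841-101552020) and inside Nbr1 in replicate 2 (chr11:101552241-101552440). Rad54l/Pomgnt1, with a recombination ATPase, had 5.62 and 3.16 and was the lowest repair pair open in both libraries. Emc3/Fancd2, with a Fanconi anaemia protein, had 14.0 and 3.31, and Gen1/Smc6, a Holliday junction resolvase beside a subunit of the SMC5/6 complex, 10.2 and 5.95.

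In mismatch repair, Aimp2/Pms2 had densities of 16.8 and 13.7. In base excision repair, Toe1/Mutyh had 14.4 and 9.94, Tsc2/Nthl1 12.7 and 10.1, Osgep/Apex1 21.7 and 8.18 and Ccnb1ip1/Parp2 28.1 and 14.4. Pinlyp/Xrcc1 was the exception among them, with 0.503 in replicate 1 and no peak in replicate 2, although XRCC1 is a core scaffold of the same pathway. That peak lay just inside Xrcc1 and no base between the annotated starts was hypersensitive in either library. Whether a peak lay at another annotated transcript start of Xrcc1 was not looked at. In nucleotide excision repair, Xpc/Lsm3, with the damage sensor, had 32.4 and 11.6 and Ndufaf2/Ercc8 18.3 and 4.89. The translesion polymerases of Polh/Xpo5 and Polk/Col4a3bp had 16.1 and 7.89 and 19.2 and 14.2. The helicase pairs Recql/Golt1b and Wrn/Purg had 29.1 and 16.5 and 18.8 and 11.6, the latter continuous over 798 bp. The tyrosyl-DNA phosphodiesterases of Efcab11/Tdp1 and Acot13/Tdp2 had 16.2 and 12.1 and 14.9 and 14.3, and the replication protein A pairs Rpa1/Smyd4 and Rpa3/Umad1 21.5 and 16.5 and 20.6 and 18.3. All of these except Pinlyp/Xrcc1 were open in both animals.

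Genes of end joining, which completes V(D)J recombination in developing T cells, and genes of the T lineage met in 4 pairs. Mcm4/Prkdc, a subunit of the replicative helicase beside DNA-PKcs, had densities of 36.3 and 22.3, the highest of the repair pairs in replicate 1. Its densest peak lay on the Mcm4 start (chr16:15637381-15637620) in both libraries, while the Prkdc start lies 466 bp away. Lig4/Abhd13, with DNA ligase IV and starts 21 bp apart, had 35.1 and 18.3. Poll/Gm17018, with DNA polymerase lambda, had 5.48 and 5.21, and its densest peak lay inside Poll rather than over the printed ETS site. Smyd1/Cd8b1 pairs a methyltransferase of muscle with the beta chain of the CD8 co-receptor, a T cell surface gene. Its densities were 16.4 and 12.7, its densest peak lay on the Cd8b1 start and not on that of Smyd1 in both libraries, and yet all bases over the 555 bp to the Smyd1 start were hypersensitive. Of the 46 T-lineage and recombination genes, these 4 lay in pairs (8.70%, interval 3.43 to 20.3%), near the 6.959% of all genes.

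Replication-dependent histone genes lay in pairs most often of the listed families. Of 67 such genes, 27 were in pairs (40.3%, interval 29.4 to 52.3%), mostly an H2A gene facing an H2B gene. Of their 14 pairs, 11 were open in both libraries and 3 in neither, beside 94.4% and 3.82% of all pairs. Densities of the open ones were moderate, from 4.02 at Hist1h2ae/Hist1h2bg to 13.9 at Hist2h2ac/Hist2h2be in replicate 1 and from 3.26 at Bola1/Hist2h2ab to 12.5 at Hist1h2bf/Hist1h2ad in replicate 2. Their median percentile of 90.7 lay below the 95.2 of all pairs. The closed ones were Hist1h2ba/Hist1h2aa, which encode the testis variants of H2B and H2A, and the neighbours Hist1h2bq/Hist1h2ao and Hist1h2ap/Hist1h2br. In the last 2 the 31-base words of the 300 bp on the middle of the pair had a median of 2 copies in the genome, which held for 4 of the 693 pairs open in both libraries. Their part in the missing peaks was not tested.

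Mitochondrial genes gave further members. Of 78 genes of the mitochondrial ribosome 18 lay in pairs (23.1%). All 18 pairs were open in both libraries, near the 94.4% of all pairs that were. By mean percentile the 18 pairs ran from Zfp661/Mrps5, with densities of 4.93 and 1.25, to Mrps18b/Ppp1r10, with 32.6 and 33.3. Of 41 genes of respiratory complex I and its assembly 12 lay in pairs (29.3%), again all open in both, from Ndufa4/Phf14 with 6.79 and 4.46 to Wdr4/Ndufv3 with 39.8 and 23.9. Mrps12/Sars2 joins a mitochondrial ribosomal protein with the mitochondrial seryl-tRNA synthetase and had 15.9 and 17.0, and Sdhd/Timm8b, a subunit of complex II beside an import chaperone, 16.3 and 8.24. The proteasome gave 5 of 39 genes and the cytosolic ribosome 8 of 79 (12.8% and 10.1%), both intervals reaching below the share of all genes. Psmb1/Tbp, a proteasome subunit beside the TATA-binding protein, had 23.7 and 17.4. None of 1128 olfactory receptors and none of 53 keratins lay in a pair. Of 43 genes with collagen symbols 3 did (6.98%), near the share of all genes, and these were Col4a3, Col4a4 and Col4a3bp, the last of which encodes a lipid transfer protein.

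Of 15 textbook head-to-head pairs, 8 met the rule and 7 were left out because their annotated 5′ ends overlap, so that the starts do not point apart. Of the 8, 7 were open in both libraries, beside 94.4% of all pairs. The exception was Col4a4/Col4a3, which encodes basement membrane collagen IV chains and had 1 peak with a density of 0.169, at percentile 3.08, in replicate 1 and none in replicate 2. No base between its starts was hypersensitive in either library.

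The 28 pairs without a peak in either library included several genes known for expression in other tissues. Il11/Tmem190 pairs a cytokine with a sperm protein, Dgcr2/Tssk2 and Tssk3/Fam229a hold testis-specific kinases, and Bhmt2/Dmgdh holds, in Dmgdh, an enzyme of choline breakdown in liver. The 6 closed pairs with the nearest starts were Best1/Rab3il1 (36 bp), Ppp1r3d/Fam217b (52 bp), Rnf151/Rps2 (53 bp), Dgcr2/Tssk2 (75 bp), Il11/Tmem190 (78 bp) and Zfp558/Mbd3l1 (91 bp). Not all lacked a peak at another start, and transcription was not measured. Rps2 encodes a core protein of the small ribosomal subunit, and at 13 of the 28 pairs in replicate 1 and 11 in replicate 2 a peak lay within 500 bp of another annotated transcript start of either gene, Rnf151/Rps2, Best1/Rab3il1, Dgcr2/Tssk2 and Zfp558/Mbd3l1 among them. At those pairs the gene's outermost 5′ end, which the rule uses, was not the open start. In 15 pairs in replicate 1 and 17 in replicate 2, among them Ppp1r3d/Fam217b and Il11/Tmem190, no such peak was found.

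The 13 pairs open in 1 library were weak with 1 exception. In 12 of them the density was at most 0.751, as at Nisch/Sema3g (0.751), Grik5/Zfp574 (0.635) and Pinlyp/Xrcc1 (0.503), all in replicate 1. Sqstm1/Mgat4b, with the autophagy receptor p62, had 4.66 in replicate 1 over both starts. In replicate 2 no peak had its midpoint in the window of Sqstm1/Mgat4b, and yet every base between its starts was hypersensitive there. Peg3/Usp29, an imprinted pair that falls outside the naming rule and was picked after its values were seen, had 0.222 in replicate 1 and no peak in replicate 2.

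Sequence composition differed from that of other promoters. In the 300 bp on the peak's middle, the ratio of CpG dinucleotides observed to those expected from base content had a median of 0.833 and 0.843 in divergent peaks and of 0.715 and 0.774 in other promoter peaks. The difference of medians was 0.119 and 0.0691, and its mean of 0.0938 fell to 0.0443 against other peaks within 500 bp of a start. GC content did not separate them, with 62.7% and 63.0% against 62.0% and 64.0%. Density was higher at pairs at like CpG content too, against other promoter peaks within 1 kb of a start. The strata were not formed with other peaks held to 500 bp, where the ratio over all peaks was 2.54 and 1.96. Between 0.8 and 1 of the expected CpG, the median density was 14.9 against 6.34 in replicate 1 and 8.18 against 3.92 in replicate 2. In the 7 strata the ratio of medians ran from 1.63 to 3.47 in replicate 1 and from 1.26 to 2.37 in replicate 2, and the lowest and highest strata held few divergent peaks (6 and 17 in replicate 1).

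Motif content went the same way for the factors of housekeeping promoters. The motifs were searched on both strands as exact letters in 300 bp on the middle of each peak, and a match is a description of sequence, not of binding. The ETS motif of GABPA, CCGGAAGT, was in 10.3% and 11.1% of divergent peaks and in 4.62% and 6.04% of other promoter peaks. The YY1 motif AAGATGGCG was in 5.37% and 5.48% against 1.84% and 2.46%, and the BANP motif CTCGCGAGA in 2.30% and 2.27% against 0.759% and 1.03%. The NRF1 motif GCATGCGC was in 6.52% and 6.92% against 3.31% and 4.10%, and the CCAAT box in 38.5% and 40.4% against 29.6% and 30.6%. The most frequent motif, GGGCGG of the SP and KLF factors, was in 66.6% and 68.3% against 54.8% and 62.7%.

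Averaged over the libraries, the share at pairs over the share at other promoters was 2.62 for BANP, 2.57 for YY1, 2.27 for ZNF143 (ACTACAATT), 2.03 for GABPA/ETS, 1.83 for NRF1 and 1.58 for CRE (TGACGTCA). It was 1.45 for EGR (GCGTGGGCG), 1.31 for NFY, 1.29 for TCF/LEF (CTTTGAT), 1.16 for the E-box CACGTG and 1.15 for SP/KLF. These 11 of the 16 motifs had a ratio above 1 in both libraries. The ratio was 0.654 for RUNX (TGTGGTT), 0.661 for AP-1 (TGANTCA) and 0.874 for CTCF (AGGGGGCGC). With the densest peak of each promoter, the AP-1 ratio was 0.771 in replicate 1 and 1.02 in replicate 2. The ratio was 0.783 for the GATA motif, searched as AGATAA, but 1.01 against other peaks within 500 bp. For the TATA box, searched as TATAAA, the libraries lay on either side of 1, with 0.745 in replicate 1 and 1.03 in replicate 2. Counts were small, with 24 and 22 divergent peaks holding BANP, 11 and 10 ZNF143 and 29 and 22 RUNX. Against other peaks within 500 bp the ratios shrank, to 1.90 for BANP, 1.91 for YY1, 1.54 for GABPA/ETS and 1.42 for NRF1, and SP/KLF was level at 1.01.

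**Figure D5:**
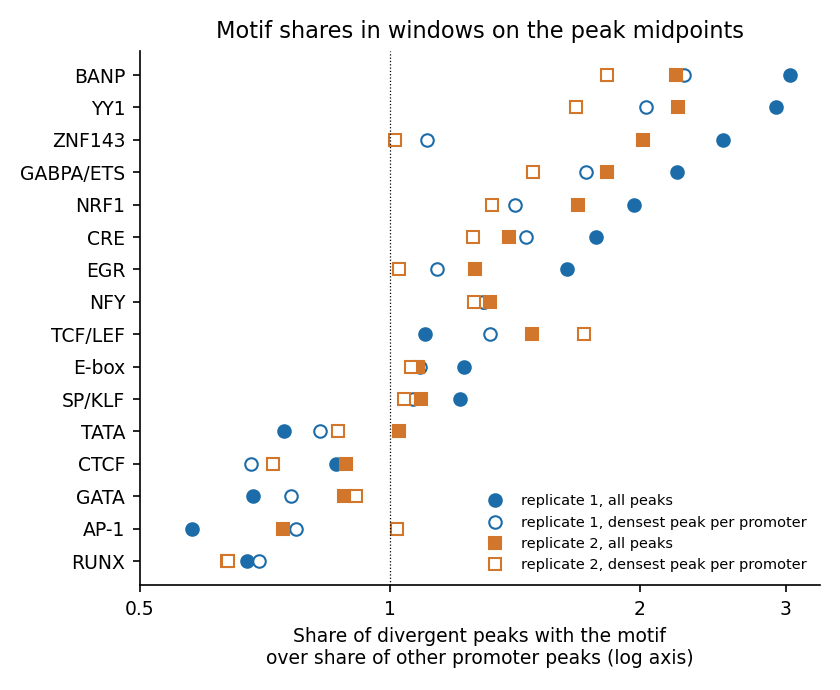
Share of divergent peaks with each motif over the share of other promoter peaks, log axis, for all peaks (filled) and for the densest peak of each promoter (open), in each library. BANP, YY1, GABPA/ETS, NRF1, NFY and CRE lie right of 1 in all 4 countings, RUNX, CTCF and GATA left of it; ZNF143 and EGR come close to 1 with the densest peaks.

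Where CpG content was alike, 6 motifs kept a ratio above 1 in both libraries and in both of the 2 fullest strata, from 0.6 to 0.8 and from 0.8 to 1. The other promoter peaks were here again those within 1 kb of a start. The 6 motifs were GABPA/ETS (1.79 to 2.10), NRF1 (1.34 to 1.66), NFY (1.29 to 1.41), YY1 (1.24 to 3.63), BANP (1.44 to 2.92) and TCF/LEF (1.28 to 2.05). Another 5 motifs lay on opposite sides of 1 in the 2 strata, in both libraries. SP/KLF went from 1.08 and 1.06 in the lower stratum to 0.951 and 0.929 in the upper one, and the E-box from 1.13 and 1.04 to 0.962 and 0.918. CRE went from 0.457 and 0.566 to 1.62 and 1.55, TATA from 0.856 and 0.991 to above 1 in both libraries, and ZNF143 from 0.418 and 0.778 to 4.26 and 2.54. Few peaks stand behind some ratios of both groups. In the lower stratum 0.935% of 321 and 1.38% of 290 divergent peaks held CRE and 0.312% and 0.690% ZNF143. BANP was in 0.623% and 1.03% of them and TCF/LEF in 2.18% and 2.76%, so their ratios above 1 there rest on few peaks. RUNX had ratios of 1.01 and 0.980 in the lower stratum and of 0.710 and 0.719 in the upper one. AP-1 had 0.958 and 0.979, then 0.898 and 1.41. GATA had 1.05 and 1.08, then 0.577 and 1.09, while CTCF stayed below 1 in both strata and both libraries (0.525 to 0.821).

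The sites differed in how often a footprint covered their centre. Within divergent peaks, 38 of 40 CRE sites in replicate 1 and 37 of 38 in replicate 2 lay in a footprint (95% and 97.4%). For NRF1 it was 87.8% and 80.8%, for BANP 83.3% and 86.4%, and for SP/KLF 71.3% and 67.8%. CCAAT boxes were covered at 35.5% and 33.2%, close to the 34.7% and 31.3% of all bases of divergent peaks that lay in footprints, and RUNX sites at 10% (2 of 20) and 16.7% (2 of 12). In other promoter peaks, where 21.6% and 22.3% of bases lay in footprints, CRE had 85.5% and 90.7% and NFY 26.4% and 28.4%. In the printed pairs, which were picked to show the motifs, NRF1 sites were again covered more often than CCAAT boxes. Both NRF1 sites of Polh/Xpo5 and the one of Efcab11/Tdp1 were in a footprint in both libraries, while of the CCAAT boxes 2 of 4 were at Recql/Golt1b, 2 of 4 at Mrps12/Sars2, 4 of 7 at Xrcc3/Zfyve21 and 1 of 3 at Hist1h2ak/Hist1h2bn.

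CCAAT boxes lay mostly between the starts and YY1 motifs mostly within the genes. Over the 693 pairs open in both libraries, the 130288 bases between the starts held 530 CCAAT boxes, or 4.07 per kb, and the first 100 bp of both genes of each pair held 151 in 138600 bases, or 1.09 per kb. YY1 was arranged the other way, with 5 sites between the starts (0.0384 per kb) and 45 in the first 100 bp of the genes (0.325 per kb). Of these 45, 39 read AAGATGGCG along the gene's own strand and 6 against it. The density between the starts over that within the genes was 3.73 for CCAAT boxes and 0.118 for YY1. Rarer motifs also lay more densely between the starts, with ratios of 3.01 for TCF/LEF (17 and 6 sites), 2.93 for CTCF (11 and 4), 2.57 for TATA (29 and 12), 2.36 for AP-1 (20 and 9) and 2.13 for EGR (8 and 4). GABPA/ETS, RUNX and ZNF143 were about as dense in both places, with ratios of 1.13, 1.15 and 1.06. None of the 10 printed sequences holds a YY1 motif, and 4 of them hold CCAAT boxes.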

How the data were processed

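DNase-seq of thymus was analysed from the files the submitters deposited for 2 libraries on mm10, per the labels. Notes deposited beside the files derive each library's peaks and cut rates from its own alignment, without pooling. Not given in the sources used here are aligner, callers of peaks and footprints, and read depth. The signal density per peak is the authors' deposited value with no stated scaling, so its ratios were taken within a library only. The deposited q-value (false discovery rate) file lists runs of bases below 0.05, and footprint files were used for positions only.

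Each library's longer peak list was used. Starts were gene 5′ ends of GENCODE M21 autosomal protein-coding genes. Values are given per library and as mean ± SD over n = 2, with no test, since an exact permutation test over 2 libraries cannot go below a two-sided p of 0.5. Wilson 95% intervals cover counting error only. A library overlap needed 1 bp, and a footprint belonged to a peak by its midpoint. Overlapping matches of a motif on both strands counted as 1 site. Sequence came from the RefSeq copy of GRCm38, the assembly called mm10. Computation used Python 3.11.15, numpy 2.4.6, pandas 2.3.3, scipy 1.17.1 and matplotlib 3.10.9, tested on simulated pairs, peaks and motifs.

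Pairs were named by rule: 8 densest by mean rank, 6 closed with the nearest starts, 4 open in 1 library with the highest density, 4 with the most footprints, 4 nearest and 4 farthest, and all that hold a listed textbook, T-lineage or DNA repair gene. Unannotated models (Gm numbers and Rik names) were passed over except in the lists, and a few named by the rule are not reported here. Members, lists and motifs were chosen with earlier results of these data known. Family examples, motif positions, copy numbers and closed pairs' other starts were looked at after that.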

Additional observations from a re-analysis of the deposited data

How the results depend on the processing

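Of 81 recomputed values of the 9 main results, 67 moved by less than 1 SD between the libraries (for the motif count, by less than 1.5 times) and 14 moved further. Apart from the motif count, values with 1 library left out could not move further. With 2 libraries the mean then shifts by less than 1 SD whatever the data. Overlap of divergent peaks with the other library also could not change with the choice of other promoter peaks. The count of 67 is therefore no measure of stability. The ratio of median densities fell to 2.12 with the densest peak of each promoter and to 2.25 with other promoter peaks within 500 bp, and it ran from 3.0 to 5.74 when either library was left out. The footprint ratio, 1.33, became 1.18, 1.14 and, with a 250 bp peak window, 1.49. The CpG difference became 0.0443 with other peaks within 500 bp, and overlap with the other library rose to 98.98% with the densest peaks. Exactly 1 peak was found at 66.6% of open pairs at most 300 bp apart and at 83.3% with the 250 bp window. The share of midpoints between the starts, 50.4%, became 49.96% and 48.8% for pairs at most 500 and 300 bp apart, 51.7% with the shorter list, 50.6% without unnamed models and 63.5% with the 250 bp window. The share of open pairs stayed between 94.35% and 96.05%. Of 176 recomputed ratios of single motifs, 2 turned: TATA to 1.03 without replicate 1 (0.745 without replicate 2), and GATA to 1.01 with other peaks within 500 bp. No paired analysis was possible because there is 1 group and no result comes from a test; each ratio was formed within a library. With 2 animals, unstated scaling and unknown depth, neither a difference between the libraries nor a rate of missed peaks can be judged.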

Other observations

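Head-to-head genes whose 5′ ends overlap, and which the rule for divergent pairs leaves out, were looked at after the data had been seen. There were 434 such pairs with starts at most 1 kb apart and no gene in a divergent pair. Their genes therefore count among the genes in no pair above. Of the 434 pairs, 94.2% were open in replicate 1 and 91.2% in replicate 2, against 96.05% and 94.55% of divergent pairs. The median density of their densest peak was 14.1 and 8.01, beside 17.1 and 10.3. Exactly 1 peak was found at 37.2% and 48.7% of the open ones, beside 57.6% and 62.7% of divergent pairs. None of these differences was tested.

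Textbook pairs of this kind varied widely. Tap1/Psmb9, an antigen peptide transporter beside an immunoproteasome subunit, had densities of 39.4 in replicate 1 and 17.6 in replicate 2. Hspd1/Hspe1, the mitochondrial chaperonins, had 30.5 and 22.6, and Paics/Ppat, of purine synthesis, 32.6 and 19.6. Surf1/Surf2 had 3.50 and 1.194 and Tk1/Afmid 3.53 and 1.76. Col4a1/Col4a2 had no peak in either library, and the divergent collagen pair Col4a4/Col4a3 had only a weak one in replicate 1.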
